A study of Homo sapiens with 18 samples.

Results

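ATG7, ATG3, ATG10, ATG12, ATG5 and ATG16L1 are the 6 genes that encode the conjugation machinery of autophagy, and they are described here across all 18 libraries of a polyA RNA-seq experiment. The genes were taken by name, as a pathway group picked with earlier results of these data known, from the 63677 gene identifiers of the count files, and all 6 were among the 15179 genes with enough reads to be tested. The cells were HAP1, a human near-haploid line derived from a chronic myeloid leukaemia line. The study held 3 HAP1 lines, namely the parental line (WT), a line labelled ATG7KO and a line labelled RB1CC1KO (RB1CC1 is also called FIP200). Each line was grown either in full medium, which was IMDM with 10% serum, or for 6 h in EBSS, a balanced salt solution that holds no amino acids and no serum, and each of the 6 groups had 3 libraries labelled as independent biological replicates. Each knockout is represented by 1 line as far as the labels say, so an effect of the knockout and a difference between lines cannot be told apart.

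Autophagy encloses cytoplasm in a double membrane, and the growth of that membrane needs conjugation reactions that resemble ubiquitination. Both ATG12 and the ATG8 proteins (LC3 and GABARAP families) are activated by ATG7, which acts as the E1, ATG10 is the E2-like enzyme that passes ATG12 to ATG5, and ATG3 is the E2-like enzyme that passes ATG8 proteins to the lipid phosphatidylethanolamine. The ATG12-ATG5 conjugate binds ATG16L1, and the assembled complex acts like an E3 for the lipid conjugation and sets where on the membrane it happens. Amino acid and serum withdrawal is a standard way of inducing autophagy, and the 3 lines allow the RNA of these genes to be compared with the E1-like step, or the upstream ULK1 complex to which RB1CC1 belongs, labelled as removed.

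The libraries held 4892072 to 26005942 reads assigned to genes. The shallowest was ATG7KO in EBSS replicate 3, and the other 17 held at least 11994110. RB1CC1 RNA, which encodes the scaffold of the ULK1 complex, was not lower in the line labelled RB1CC1KO. Its log2 fold change against WT was 0.58 in full medium (edgeR adjusted p = 8.3e-08), so these libraries are called RB1CC1KO-labelled below. A gene's RNA level does not check an edit that disrupts only the protein, so the value speaks neither for nor against the label. BCR and ABL1, the fusion partners of the parental leukaemia, were read in all 6 groups. PTPRC, the pan-leukocyte surface marker, had no read in 5 of the 6 groups, and GATA1, an erythroid factor, had none in any group. Marker levels differed between lines. The summed level of 12 haematopoietic markers was 114 to 130 CPM in WT and 77.1 to 79.1 CPM in ATG7KO in full medium, with KIT, TAL1 and RUNX1 among those read and SPI1 and HBG1 without a read in either. In both of these groups 7 of the 12 averaged under 1 CPM, so the sum rests on the others. The summed level of 11 fibroblast and mesenchymal markers was 734 to 766 CPM in WT and 1018 to 1063 CPM in ATG7KO, with DCN and LUM without a read. Of the 7 of these that were tested, 3 were called higher and 2 lower in ATG7KO. The summed level of 8 epithelial markers was 103 to 114 CPM in WT and 63.6 to 68.0 CPM in ATG7KO, with 4 of 5 tested called lower. Under 1 CPM were 5 mesenchymal and 4 epithelial markers in WT, and 6 and 5 in ATG7KO. Of 5 tested haematopoietic markers, 4 were called lower in ATG7KO in full medium. There 10.5% of all genes were called (6.07% lower). In the RB1CC1KO-labelled line in full medium 17.2% of all genes were called. Of the tested markers there, 4 of 7 mesenchymal and 3 of 5 epithelial ones were called lower, and of the haematopoietic ones 2 were lower and 1 higher. The part of these line differences in the results below was not tested.

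The 250 bases upstream of the RefSeq start (GRCh38.p14, 5′ to 3′ on the gene's strand) are shown for 3 genes. These are the genes called in the same direction in EBSS in every line, so that the upstream letters stand beside the shared calls. ATG12 and ATG3 rose and ATG10 fell. Capitals mark the only match, among all 7 RefSeq upstream windows of the 6 genes, to 5 short factor motifs that were picked after the values had been seen and were searched on both strands. With only 1 match, no motif overlapped another.
ATG12: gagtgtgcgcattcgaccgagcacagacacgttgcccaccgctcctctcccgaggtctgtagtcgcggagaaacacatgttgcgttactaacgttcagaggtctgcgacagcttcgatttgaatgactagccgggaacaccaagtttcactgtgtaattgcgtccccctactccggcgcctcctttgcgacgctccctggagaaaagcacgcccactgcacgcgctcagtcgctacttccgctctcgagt
ATG3: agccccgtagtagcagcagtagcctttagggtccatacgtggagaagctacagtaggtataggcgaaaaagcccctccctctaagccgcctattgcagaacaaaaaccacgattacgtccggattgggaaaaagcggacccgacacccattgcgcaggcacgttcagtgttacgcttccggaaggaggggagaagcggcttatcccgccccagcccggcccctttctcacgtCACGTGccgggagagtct
ATG10: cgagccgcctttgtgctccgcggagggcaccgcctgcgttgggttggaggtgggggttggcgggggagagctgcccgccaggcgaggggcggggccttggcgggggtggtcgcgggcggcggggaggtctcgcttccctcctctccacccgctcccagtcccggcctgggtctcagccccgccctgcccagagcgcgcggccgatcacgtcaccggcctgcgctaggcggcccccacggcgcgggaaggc

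The ATG12 window lies at chr5:115841566-115841815 on the minus strand, the ATG3 window at chr3:112561963-112562212 on the minus strand and the ATG10 window at chr5:81971773-81972022 on the plus strand. Upstream refers to the RefSeq start only. In the GENCODE annotation the ATG12 window lies inside the span of the gene, and the ATG3 window overlaps its gene's span. The bases that follow the ATG10 window were not found in a GENCODE transcript of ATG10. The G and C content was 57.6% for ATG12, 57.6% for ATG3 and 77.6% for ATG10. The capitals in ATG3 are CACGTG, the E-box core recognised by TFEB, TFE3 and MITF, located 18 bases before the start, and 6.34% of 35116 RefSeq upstream windows of this length hold the same letters. TGATGNAA, for ATF4 with DDIT3, occurred in 3.14% of all windows, GTAAACA, for FOXO factors, in 2.98%, TGANTCA, for JUN, in 6.57%, and TTTGGCGC, for E2F1, in 0.55%. None of these 4 was in a window of the 6 genes. A match describes letters, not a bound site.

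In GENCODE 29 (GRCh38) ATG7 spans chr3:11272309-11557665 on the plus strand, ATG3 chr3:112532509-112562046 on the minus strand and ATG10 chr5:81972025-82276857 on the plus strand. ATG12 spans chr5:115828200-115841858 and ATG5 chr6:106045423-106325791, both on the minus strand, and ATG16L1 spans chr2:233210051-233295674 on the plus strand. Levels are given below as CPM, the share of a library's reads on a fixed scale after TMM scaling, which compares a gene between libraries but not with other genes. Divided by merged exon length in kilobases, the WT level in full medium was highest for ATG3, the LC3-lipid E2, at 9.61 ± 0.576 CPM per kb (SD, n = 3). ATG16L1 followed at 6.11 ± 0.361, ATG5 at 5.09 ± 0.672 and ATG12 at 4.97 ± 0.0535 CPM per kb. ATG7 was at 1.76 ± 0.148 and ATG10 at 1.12 ± 0.0693 CPM per kb, so the E1-like enzyme and the ATG12-directed E2 had the lowest levels per length. With the longest transcript as length, ATG3 was still highest (19.5), ATG7 (3.14) and ATG10 (2.02) were still lowest, and the 3 others changed places among themselves, with ATG12 at 10.2, ATG5 at 8.96 and ATG16L1 at 8.78 CPM per kb.

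**Figure D1:**
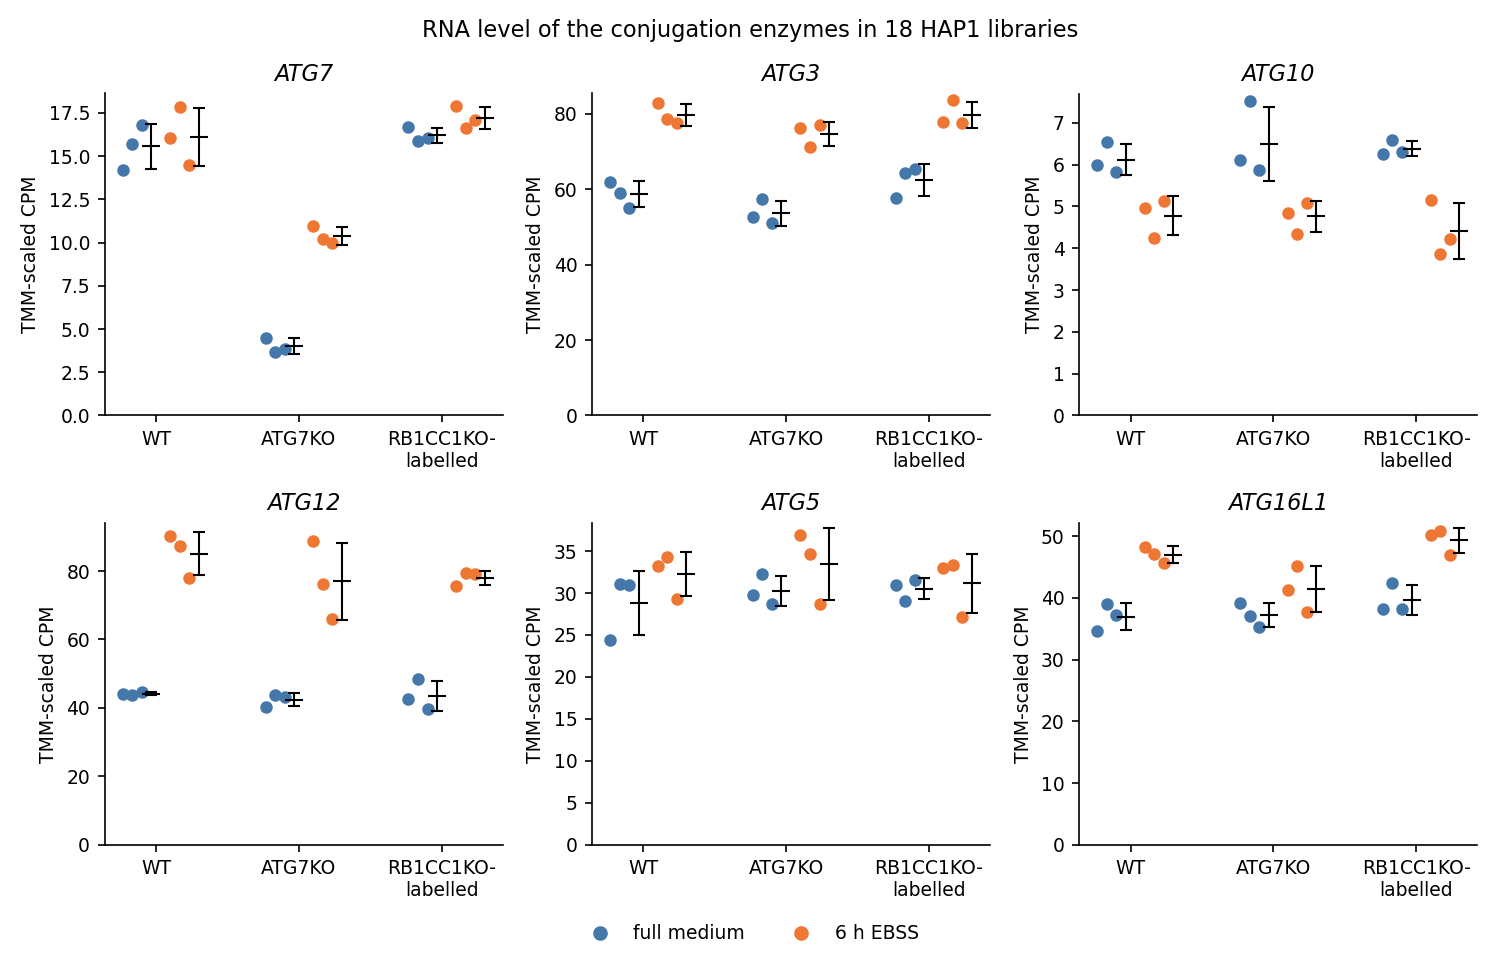
TMM-scaled CPM of each of the 6 genes (vertical axes from 0) in the 3 libraries of every group, in full medium (blue) and after 6 h in EBSS (orange), with the mean and SD beside the points. ATG7 is low only in ATG7KO and higher there in EBSS than in full medium, ATG12 and ATG3 are higher in EBSS in all 3 lines, and ATG10 is lower.

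ATG7, the E1-like enzyme at the head of both reactions, was the only one of the 6 genes called against WT in the ATG7KO line. Of all genes, 10.5% were called in full medium and 13.2% in EBSS, so the lack of a call for the others is near that background. The level of ATG7 in the ATG7KO line depended on the medium. In WT it read 14.2, 15.7 and 16.8 CPM in full medium and 16.0, 17.8 and 14.5 CPM in EBSS. In ATG7KO it read 4.51, 3.68 and 3.87 CPM in full medium and 11.0, 10.2 and 9.97 CPM in EBSS. The RB1CC1KO-labelled libraries read 16.7, 15.9 and 16.0 CPM in full medium and 17.9, 16.6 and 17.1 CPM in EBSS. The order of group means thus ran from ATG7KO in full medium, through ATG7KO in EBSS, to the 4 other groups. Both ATG7KO groups stood apart from each other and from the rest, whereas each neighbouring pair among the 4 others overlapped.

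In full medium ATG7 RNA in ATG7KO was at 25.8% of the WT mean, a log2 fold change of -1.95 ± 0.12 (SE; 95% interval -2.20 to -1.70; edgeR adjusted p = 8.81e-15). In bulk RNA, fewer cells with the RNA and less RNA per cell cannot be told apart. The value rested on 62 to 81 ATG7 reads per ATG7KO library. By p-value ATG7 ranked 38 among the 15179 genes of that comparison, and it had the 163rd lowest log2 fold change. In EBSS ATG7 was at 64.4% of the WT mean, with a log2 fold change of -0.62 ± 0.11 (95% interval -0.86 to -0.39; edgeR adjusted p = 0.000149), from 47 to 170 reads per ATG7KO library. Against the same ATG7KO libraries, the RB1CC1KO-labelled line was higher by 2.01 ± 0.12 in full medium (edgeR adjusted p = 1.24e-15) and by 0.72 ± 0.11 in EBSS (edgeR adjusted p = 5.72e-06). These comparisons share ATG7KO libraries with those against WT and are not separate evidence.

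Starvation left ATG7 RNA with no called change where the gene was labelled intact. The log2 fold change in EBSS was 0.05 ± 0.10 in WT (95% interval -0.16 to 0.26; edgeR adjusted p = 0.683) and 0.09 ± 0.10 in the RB1CC1KO-labelled line (-0.12 to 0.29; adjusted p = 0.468). Both of these small values were below 0 with upper-quartile scaling, at -0.10 and -0.06. In ATG7KO ATG7 RNA rose by 1.38 ± 0.13 (95% interval 1.11 to 1.65; edgeR adjusted p = 5.37e-11), a 2.60-fold rise. The difference between the ATG7KO and WT responses was 1.33 ± 0.17 (95% interval 0.98 to 1.68; edgeR adjusted p = 6.07e-06), the 11th smallest p of all genes. It stayed between 1.25 and 1.42 when any 1 library was left out. Only 1.05% of all tested genes had a called difference of this kind (0.369% in the higher direction), and ATG7 was the only one of the 6 conjugation genes that did. Between the RB1CC1KO-labelled line and WT 8.16% of all genes had a called response difference and none of the 6 did, and between the RB1CC1KO-labelled line and ATG7KO 3.28% did (2.3% lower), with ATG7 the only one of the 6, at -1.29 ± 0.17. These shares of all genes moved by over 1.5 times when single libraries were left out, while the calls on the 6 genes did not change. Counts are summed over the gene, so which exons or transcripts carried the ATG7 reads in ATG7KO was not analysed here.

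The gene that overlaps ATG7 and the nearest expressed coding gene on each side had no called change of this kind. VGLL4, a transcriptional cofactor gene on the opposite strand that overlaps the 3′ end of ATG7, differed from WT by 0.05 in ATG7KO in full medium (edgeR adjusted p = 0.777), and its response to EBSS differed by 0.10 (adjusted p = 0.756). SEC13, a coat and nuclear pore protein and the nearest coding gene to the left with at least 1 CPM, lies 951131 bases away. It differed from WT by -0.00143 in full medium (edgeR adjusted p = 0.995) and in its EBSS response by 0.09 (adjusted p = 0.703). TAMM41, a mitochondrial enzyme of cardiolipin synthesis 232777 bases to the right, differed by 0.09 in full medium (edgeR adjusted p = 0.636) and in its EBSS response by 0.13 (adjusted p = 0.742). Across the 18 libraries the coding genes whose log2 CPM was most like that of ATG7 among 11253 candidates were GPC6, a glypican (Pearson r = 0.951), TEX261 (r = 0.943) and NRP1, neuropilin (r = 0.924). GPC6 averaged 28.9 CPM in WT, 1.68 CPM in ATG7KO and 29.7 CPM in the RB1CC1KO-labelled line in full medium. The libraries share line and medium, so the r describes that grouping. By Spearman's rho only NRP1 stayed among the closest 3.

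**Figure D2:**
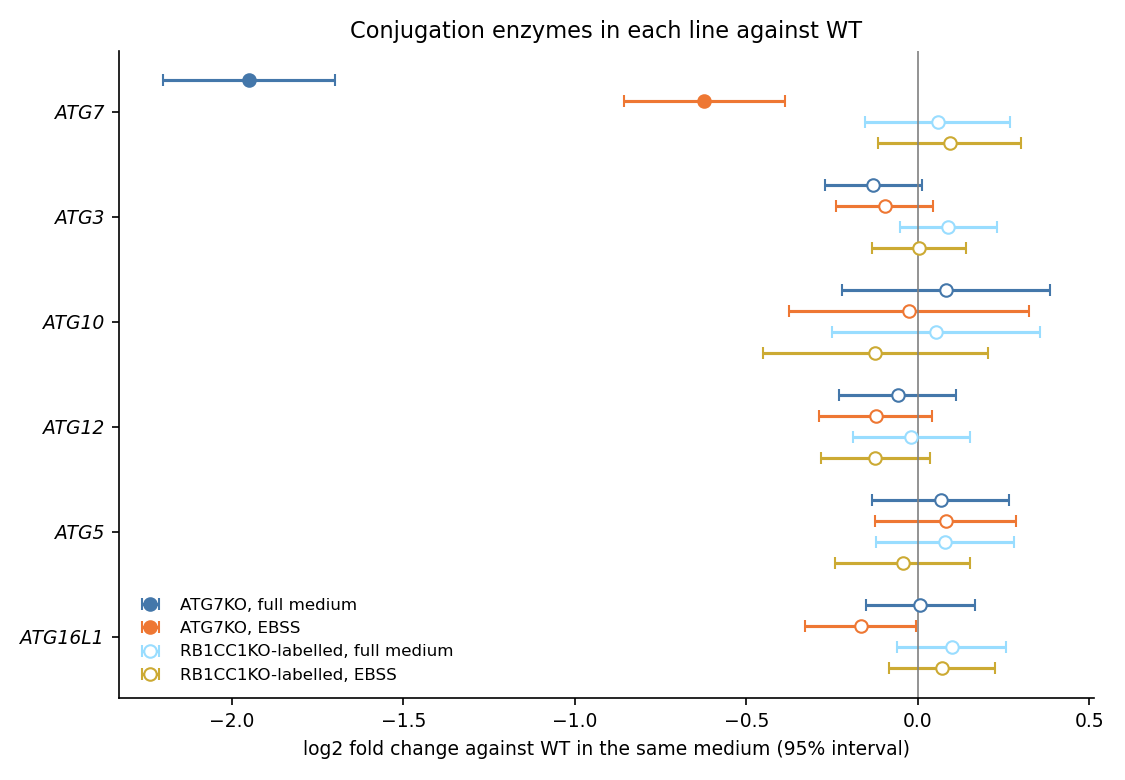
Log2 fold change with 95% interval for each of the 6 genes in the ATG7KO and RB1CC1KO-labelled lines against WT in the same medium (filled, edgeR adjusted p below 0.05; open, not called). Only ATG7 in ATG7KO is called, at -1.95 in full medium and -0.62 in EBSS; all comparisons share the WT libraries of their medium.

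The RNA of the 5 conjugation partners of ATG7 had no called change in ATG7KO against WT in either medium. Of the 6 genes, 1 was called lower and 0 higher in ATG7KO against WT in full medium, where 10.5% of all genes were called (6.07% lower). The same count held in EBSS, where 13.2% were called (7.17% lower). The substrate ATG12 differed by -0.06 in full medium (95% interval -0.23 to 0.11) and -0.12 in EBSS (-0.29 to 0.04). The E2-like ATG3 differed by -0.13 (-0.27 to 0.01) and -0.10 (-0.24 to 0.05), and ATG10, the other E2-like enzyme, by 0.08 (-0.22 to 0.38) and -0.03 (-0.38 to 0.32). ATG5 differed by 0.07 (-0.13 to 0.27) and 0.08 (-0.12 to 0.29), and ATG16L1 by 0.01 (-0.15 to 0.17) and -0.17 (-0.33 to -0.01; edgeR adjusted p = 0.181). In each medium the interval of every one of these 5 genes ended above the value of ATG7, and changes within the intervals are not excluded. In EBSS 1 library moved a call: without ATG7KO replicate 1, ATG12 was called lower too (edgeR adjusted p = 0.0346).

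None of the 6 genes was called between the RB1CC1KO-labelled line and WT, where 17.2% of all genes were called in full medium and 31.6% in EBSS. Their log2 fold changes ran from -0.02 for ATG12 to 0.10 for ATG16L1 in full medium and from -0.12 for ATG12 and ATG10 to 0.09 for ATG7 in EBSS. Against ATG7KO, 2 of the 6 were called higher in each medium, ATG7 included, beside 21.4% of all genes called in full medium (11.4% higher) and 29.3% in EBSS (13.7% higher). The other one in full medium was ATG3, at 0.22 ± 0.07 (edgeR adjusted p = 0.0207). That call was lost with upper-quartile scaling, other filters on low counts, a fit on those groups alone, or without any of 6 single libraries, with adjusted p up to 0.186 when RB1CC1KO-labelled full medium replicate 3 was left out. The other one in EBSS was ATG16L1, at 0.24 ± 0.08 (edgeR adjusted p = 0.0206), lost without ATG7KO EBSS replicate 3 (0.0956) or RB1CC1KO-labelled EBSS replicate 2 (0.0619).

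Starvation in EBSS moved the 6 genes unequally. In all 3 lines ATG12 rose more than ATG3 by fold change, ATG10 fell and ATG5 had no called change. ATG16L1 rose in WT and the RB1CC1KO-labelled line, and ATG7 rose in ATG7KO, where its fold change was above that of ATG12. In WT 3 of the 6 were called higher and 1 lower, where 64.5% of all genes were called (32.4% higher and 32.1% lower). In ATG7KO the counts were again 3 and 1, with ATG7 in place of ATG16L1, beside 62.9% of all genes (32.3% higher and 30.6% lower). In the RB1CC1KO-labelled line they were 3 and 1, beside 65.1% (31.9% higher and 33.3% lower). The share called was thus close to that of all genes, and the number of members called is not a feature of this group.

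**Figure D3:**
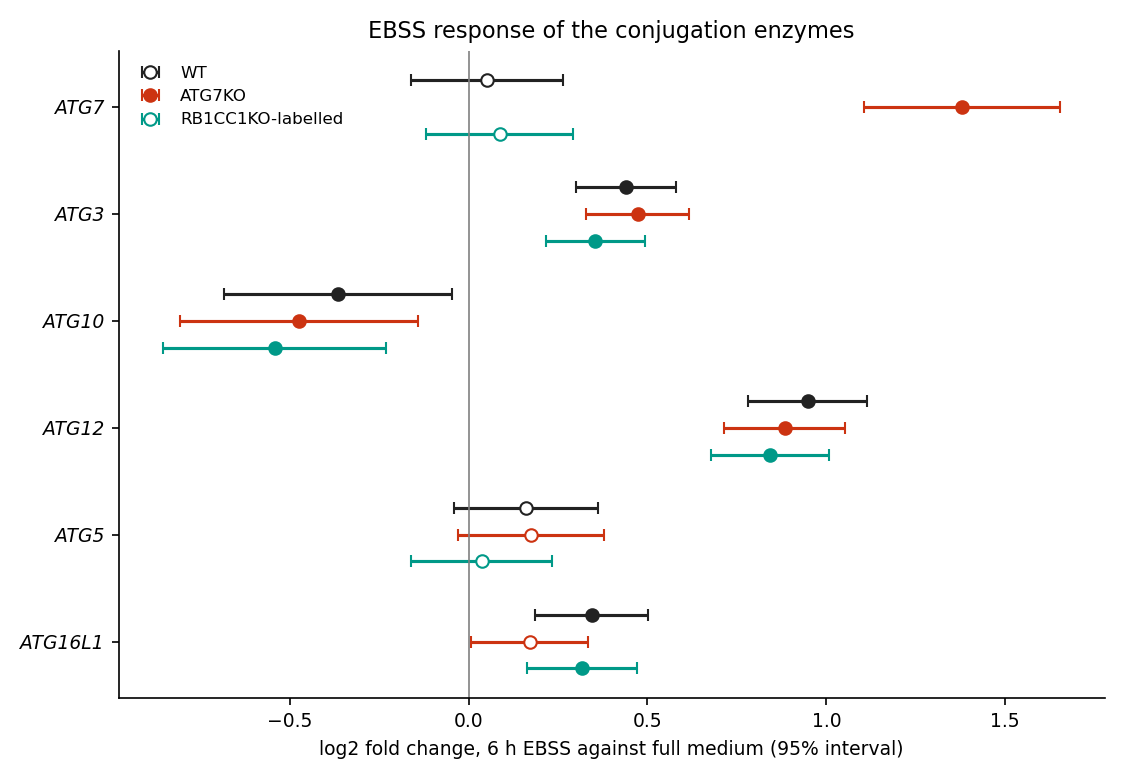
Log2 fold change with 95% interval of each of the 6 genes after 6 h in EBSS against full medium, in WT (black), ATG7KO (red) and the RB1CC1KO-labelled line (green); filled points had an edgeR adjusted p below 0.05. The 3 lines lie together for ATG12, ATG3 and ATG10, and apart for ATG7, which rose by 1.38 in ATG7KO only.

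ATG12, the ubiquitin-like protein that is joined to ATG5, read 44.1, 43.7 and 44.6 CPM in WT in full medium and 90.2, 87.2 and 78.0 CPM in EBSS. ATG7KO read 40.1, 43.7 and 43.3 CPM in full medium and 88.6, 76.3 and 66.0 CPM in EBSS. The RB1CC1KO-labelled line read 42.5, 48.3 and 39.8 CPM in full medium and 75.6, 79.4 and 79.2 CPM in EBSS. Every EBSS library was above every full medium library, while the 3 lines overlapped within EBSS. In WT ATG12 rose by 0.95 ± 0.08 on the log2 scale (95% interval 0.78 to 1.11; edgeR adjusted p = 2.57e-12), a 1.93-fold rise that 11.1% of all genes exceeded. It rose by 0.88 ± 0.08 in ATG7KO (adjusted p = 2.44e-11) and by 0.84 ± 0.08 in the RB1CC1KO-labelled line (3.07e-11). The difference in response was -0.06 between ATG7KO and WT (95% interval -0.30 to 0.17) and -0.11 between the RB1CC1KO-labelled line and WT (-0.34 to 0.13). AP3S1, a subunit of the AP-3 adaptor whose gene overlaps ATG12 on the opposite strand, had no called change in WT (0.16; edgeR adjusted p = 0.177). Genes much like ATG12 across the libraries were SEC24B, a COPII coat subunit (Pearson r = 0.990), and ZNF217 (r = 0.986).

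ATG5, the acceptor of ATG12, had no called change between media in any line. ATG5 read 24.4, 31.1 and 30.9 CPM in WT in full medium and 33.2, 34.3 and 29.3 CPM in EBSS. It read 29.7, 32.2 and 28.7 CPM in ATG7KO in full medium and 37.0, 34.6 and 28.6 CPM in EBSS, and the RB1CC1KO-labelled line read 30.9, 29.1 and 31.5 CPM and then 33.0, 33.3 and 27.1 CPM. Each group overlapped its neighbour in the order of means, which ran only from 28.8 to 33.4 CPM. The log2 fold change in EBSS was 0.16 ± 0.10 in WT (95% interval -0.04 to 0.36; edgeR adjusted p = 0.159), 0.17 ± 0.10 in ATG7KO (-0.03 to 0.38; 0.13) and 0.04 ± 0.10 in the RB1CC1KO-labelled line (-0.16 to 0.23; 0.76). With upper-quartile scaling these values were 0.00799, 0.0116 and -0.11, none of them called. Without ATG7KO EBSS replicate 3, the shallowest library, the ATG7KO value was called (edgeR adjusted p = 0.0433). The closest gene by Pearson r was TWSG1, a regulator of bone morphogenetic protein signalling, at 0.850, lower than for the other 5 genes.

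Within single libraries, a ratio of reads between a pair of genes does not depend on scaling. ATG12 reads per ATG5 read ran from 1.26 to 1.81 over the 9 full medium libraries and from 2.20 to 2.92 over the 9 EBSS libraries, with no overlap. ATG16L1 reads per ATG5 read ran from 1.15 to 1.46 and from 1.12 to 1.73, and these ranges overlapped. ATG3 reads per ATG10 read, which sets the E2 of the lipid reaction against the E2 of the ATG12 reaction, ran from 7.63 to 10.4 in full medium and from 15.1 to 21.7 in EBSS, with no overlap. ATG7 reads per ATG5 read ran from 0.114 to 0.152 in ATG7KO in full medium, from 0.294 to 0.348 in ATG7KO in EBSS, and from 0.483 to 0.630 in the 12 other libraries. These ratios were formed after the single genes had been seen and are given without a test.

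**Figure D4:**
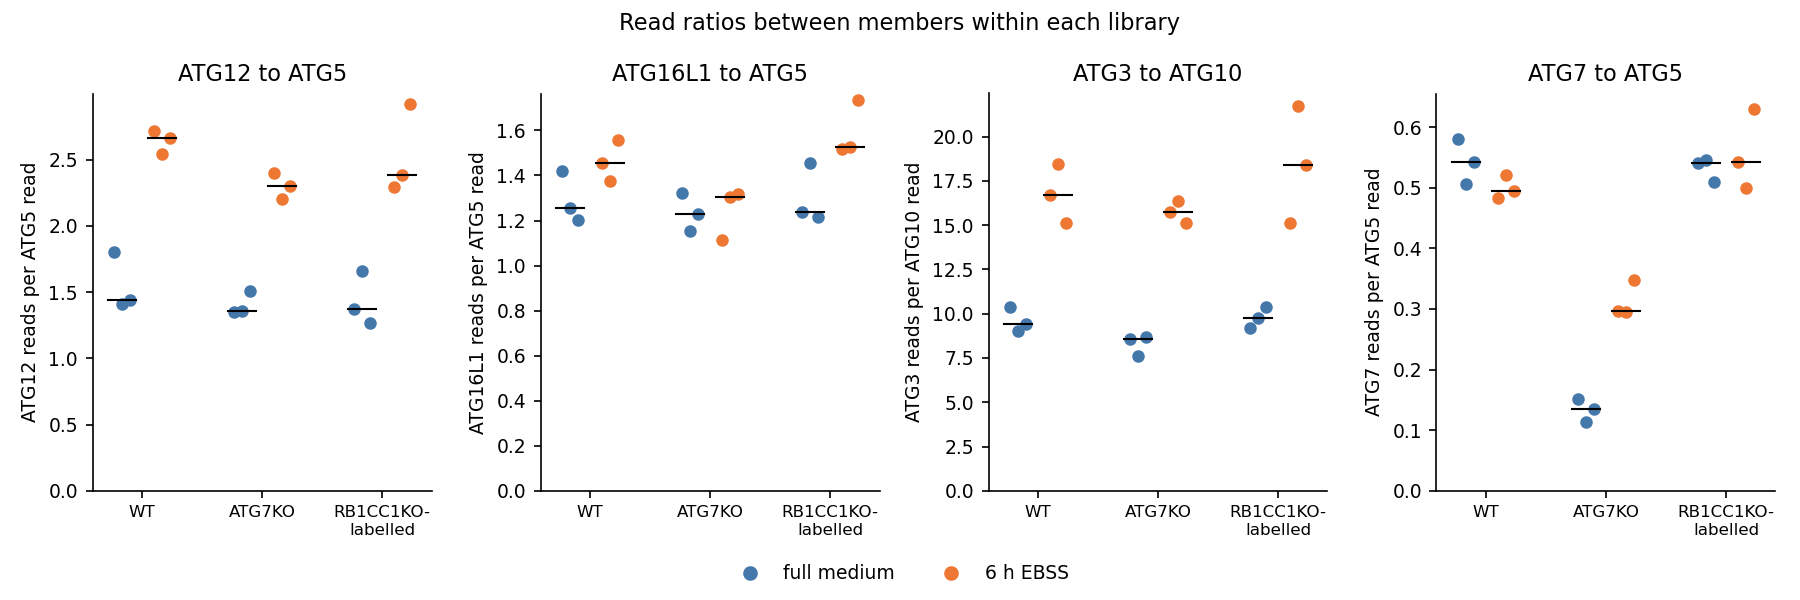
Reads of one gene per read of another within each library (vertical axes from 0), in full medium (blue) and EBSS (orange), with the median of each group as a line. ATG12 to ATG5 and ATG3 to ATG10 separate EBSS from full medium in all 3 lines, ATG16L1 to ATG5 overlaps between media, and ATG7 to ATG5 separates both ATG7KO groups from the rest.

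ATG3, the E2-like enzyme for LC3 and GABARAP proteins, read 62.1, 59.0 and 55.0 CPM in WT in full medium and 83.0, 78.5 and 77.6 CPM in EBSS. ATG7KO read 52.6, 57.4 and 51.0 CPM and then 76.2, 71.1 and 77.0 CPM. The RB1CC1KO-labelled line read 57.6, 64.5 and 65.4 CPM and then 77.9, 83.8 and 77.7 CPM. All 9 EBSS libraries were above all 9 in full medium. ATG3 rose by 0.44 ± 0.07 in WT (95% interval 0.30 to 0.58; edgeR adjusted p = 1.1e-06), by 0.47 ± 0.07 in ATG7KO (5.16e-07) and by 0.35 ± 0.07 in the RB1CC1KO-labelled line (2.53e-05). These are 1.36-fold, 1.39-fold and 1.28-fold rises. The response differed from WT by 0.03 in ATG7KO (95% interval -0.17 to 0.23) and by -0.09 in the RB1CC1KO-labelled line (-0.28 to 0.11). With upper-quartile scaling the rises were 0.29 in WT, 0.31 in ATG7KO and 0.21 in the RB1CC1KO-labelled line, all still called. SLC35A5, a solute carrier gene that overlaps ATG3 on the opposite strand, had no called change in WT (0.06; edgeR adjusted p = 0.473). ST7 (Pearson r = 0.970), the aminopeptidase gene NPEPPS (0.969) and the kinase gene TLK2 (0.966) were most like ATG3 across the libraries.

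ATG10, the E2-like enzyme for ATG12, was the only one of the 6 that fell. It read 5.99, 6.55 and 5.83 CPM in WT in full medium and 4.97, 4.25 and 5.13 CPM in EBSS. ATG7KO read 6.12, 7.51 and 5.86 CPM and then 4.85, 4.35 and 5.09 CPM, and the RB1CC1KO-labelled line read 6.25, 6.59 and 6.31 CPM and then 5.16, 3.85 and 4.22 CPM. All 9 EBSS libraries were below all 9 in full medium. The gene rested on 24 to 139 reads per library, so its errors were the widest of the 6. ATG10 fell by 0.37 ± 0.16 on the log2 scale in WT (95% interval -0.69 to -0.05; edgeR adjusted p = 0.0416), a 1.29-fold fall. It fell by 0.47 ± 0.16 in ATG7KO (adjusted p = 0.0122) and by 0.54 ± 0.15 in the RB1CC1KO-labelled line (0.00234). The WT call was lost with no filter on low counts (edgeR adjusted p = 0.0858), with only the WT libraries in the fit (0.0551), with DESeq2 (0.0631), and without WT full medium replicate 1 (0.061), WT full medium replicate 2 (0.149) or WT EBSS replicate 2 (0.167). The ATG7KO call was lost without ATG7KO full medium replicate 2 (edgeR adjusted p = 0.0917). RPS23, a ribosomal protein gene that overlaps ATG10 on the opposite strand, rose by 0.29 in WT (edgeR adjusted p = 0.000233). MPP3, a scaffold protein gene, was most like ATG10 across the libraries (Pearson r = 0.929).

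ATG16L1, which brings the ATG12-ATG5 conjugate to the membrane, read 34.6, 39.0 and 37.2 CPM in WT in full medium and 48.3, 47.2 and 45.6 CPM in EBSS. ATG7KO read 39.2, 37.1 and 35.3 CPM and then 41.2, 45.2 and 37.8 CPM, with 1 EBSS library inside the full medium range. The RB1CC1KO-labelled line read 38.2, 42.4 and 38.3 CPM and then 50.2, 50.8 and 47.0 CPM. Media separated in WT and the RB1CC1KO-labelled line but overlapped in ATG7KO. ATG16L1 rose by 0.34 ± 0.08 in WT (95% interval 0.19 to 0.50; edgeR adjusted p = 0.000235) and by 0.32 ± 0.08 in the RB1CC1KO-labelled line (0.000445). In ATG7KO the log2 fold change was 0.17 ± 0.08 (95% interval 0.01 to 0.33; adjusted p = 0.0627). This became a call with limma-voom (limma adjusted p = 0.0484) and, with edgeR, without ATG7KO full medium replicate 1 (adjusted p = 0.0469) or the shallow ATG7KO EBSS replicate 3 (0.0288). With upper-quartile scaling it was 0.00822 (edgeR adjusted p = 0.932), and the rises were 0.19 in WT (0.0255) and 0.18 in the RB1CC1KO-labelled line (0.0369), both still called. The test of the difference between the ATG7KO and WT responses gave -0.17 ± 0.11 (95% interval -0.40 to 0.05; edgeR adjusted p = 0.488), so the response of ATG16L1 was not shown to differ between these lines. PLS3, an actin-bundling protein gene, was the most similar gene (Pearson r = 0.940).

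Over the 18 libraries ATG12 and ATG3 levels had a Pearson r of 0.910 on the log2 CPM scale, ATG12 and ATG16L1 of 0.815, and ATG12 and ATG10 of -0.853. ATG12 and ATG5 had an r of 0.457, and ATG7 and ATG5 of 0.07. The points share 2 media and 3 lines, and these values describe that grouping.

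Other genes of the pathway were read in the same fit, where 32.4% of all genes were called higher and 32.1% lower in WT. There the median log2 fold change of the 6 conjugation genes was 0.25, against -0.02 for all tested genes. Of the ATG8 proteins and ATG4 proteases, which are the other substrate of ATG7 and the proteases that process it, 6 of 8 tested were called higher and 2 lower, with a median of 0.49. MAP1LC3B, the main LC3 gene, went from 92.7 ± 6.67 to 231 ± 9.72 CPM (SD, n = 3), which is 1.31 on the log2 scale (edgeR adjusted p = 1.44e-19), and ATG4D rose by 0.60. The 2 genes called lower were both ATG4 proteases, at -0.35 and -0.36, so the proteases did not all rise. All 4 tested genes of the ULK1 complex, which starts phagophore formation, were called higher (median 0.84), with ULK1 itself at 1.20. Of 13 autophagy receptors, which link cargo to ATG8 proteins, 9 were called higher and 0 lower (median 0.60), among them SQSTM1 at 0.93 and CALCOCO2 at 1.53. Of 8 genes of the VPS34 lipid kinase complex 6 were called higher (median 0.47), and of 10 genes of phagophore expansion 6 were higher and 1 lower (median 0.27).

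Of 5 genes that bind the ATG12-ATG5-ATG16L1 complex or resemble a member of it, 3 were called higher and 1 lower in WT. RB1CC1, at 1.08, was among those higher and is also counted above in the ULK1 complex, as WIPI2 is in phagophore expansion. WIPI2, which recruits ATG16L1 to membranes, rose by 0.81 (edgeR adjusted p = 1.16e-13), and RAB33B, a small GTPase that binds ATG16L1, rose by 1.54 (2.71e-16). ATG16L2, the paralogue of ATG16L1, went from 7.47 ± 0.400 to 2.84 ± 0.873 CPM in WT (SD, n = 3). This was a log2 fold change of -1.39 (edgeR adjusted p = 2.98e-07), and the gene also fell in ATG7KO (-1.61; 1.42e-07) and in the RB1CC1KO-labelled line (-1.08; 1.51e-05), while the ATG16L1 values were above 0 in all 3 lines.

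Genes of other ubiquitin-like systems were called in both directions in WT, as were all genes (32.4% higher and 32.1% lower). Their split is therefore not a feature of these systems. Of 9 tested E1-like genes other than ATG7, 4 were called higher and 3 lower in WT, with a median of 0.10. MOCS3, the E1-like enzyme of the URM1 and molybdopterin systems, fell from 15.2 ± 1.04 to 4.22 ± 1.06 CPM (log2 fold change -1.84; edgeR adjusted p = 1.25e-12), and UBA2, of the SUMO system, rose by 0.56 (3.33e-10). None of these 9 was called between ATG7KO and WT in either medium, beside 10.5% of all genes in full medium and 13.2% in EBSS, so that a count of 0 of 9 is near the background. Of 7 E2-like and E3-like genes of other systems 1 was higher and 1 lower (median 0.03), and of 7 other ubiquitin-like proteins 1 was higher, UFM1 at 0.45, and 2 lower, SUMO3 at -0.42 and NEDD8 at -0.37 (median -0.09). Of 11 transcription factors with known autophagy gene targets 9 were higher and 1 lower, with DDIT3 at 4.23, JUN at 3.77, ATF4 at 1.68 and FOXO3 at 1.57.

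**Figure D5:**
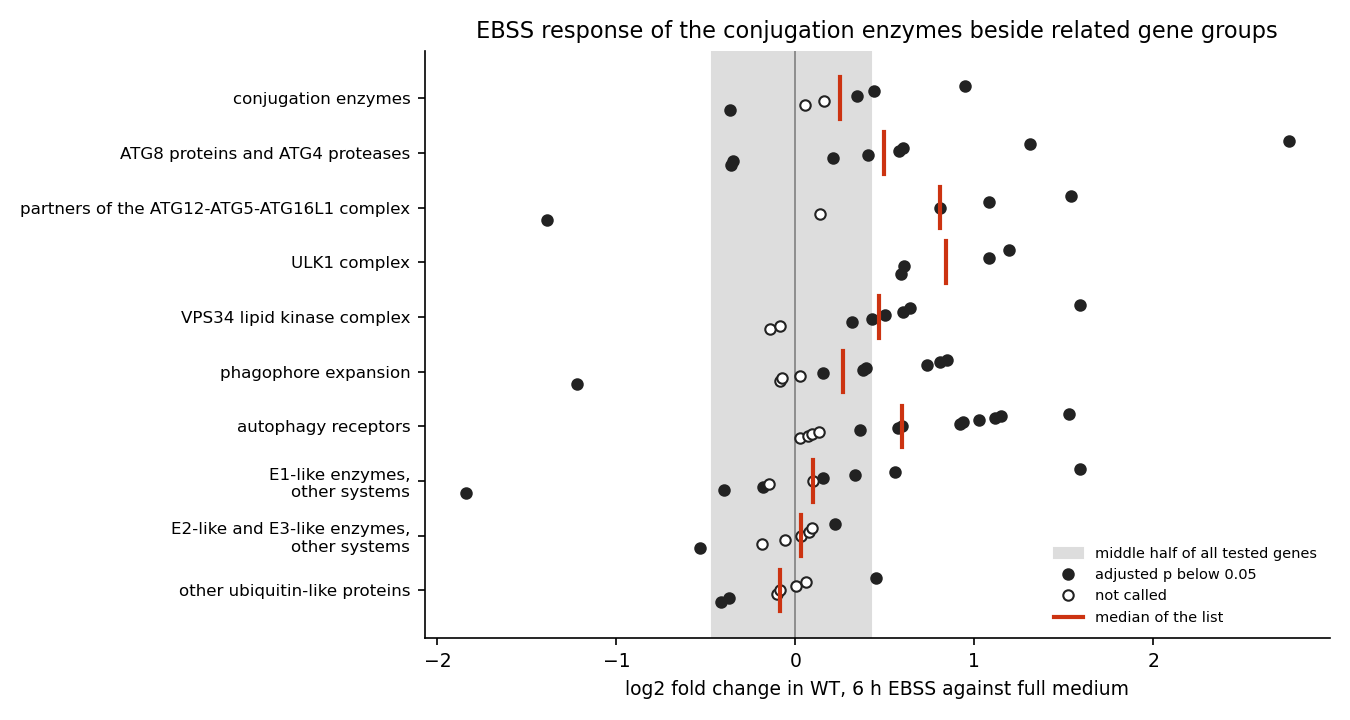
Log2 fold change in WT after 6 h in EBSS for the 6 conjugation genes and the tested genes of 9 related groups (filled points, edgeR adjusted p below 0.05; red line, median of the group; grey band, interquartile range of all 15179 genes). ATG12 is the conjugation gene farthest from 0, and the median of the conjugation genes, 0.25, lies inside the grey band, as do those of the other ubiquitin-like systems.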

How the data were processed

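PolyA RNA of 18 HAP1 libraries was sequenced as 75-base single-end reads from a directional kit, per the labels' protocols. The deposited values are raw read counts per Ensembl gene. STAR 2.4.2a, Picard, HTSeq 0.6.1p1, edgeR and DESeq2 are named with GRCh37 (hg19) per the submitters' processing notes, and the strand setting of the counting is not given in the sources used here. If reads were counted without strand, those of overlapping opposite genes could not be told apart. Gene names, spans and lengths came from GENCODE 29 (GRCh38), which held 52526 of the 63677 identifiers; upstream sequences came from RefSeq (GRCh38.p14). Rows that name no gene were left out, and unassigned reads on no feature are not part of any depth given.

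Genes were kept by edgeR's filterByExpr (15179 genes), scaled by TMM and tested in edgeR 4.0.16 (R 4.3.3) with the quasi-likelihood test on all 6 groups, with Benjamini-Hochberg adjustment over all tested genes and a threshold of 0.05. A call means an adjusted p below 0.05, and ± after a log2 fold change is the standard error. Intervals follow from the fit; the biological coefficient of variation was 6.72%. Depth ran from 4892072 to 26005942 reads. On simulated counts the fit recovered 86.9% of 2-fold changes for EBSS in WT (14763 genes), 88.5% for ATG7KO against WT in full medium (14756 genes) and 83.7% for the ATG7KO minus WT response difference (14763 genes). Of 1.5-fold changes it recovered 65.6%, 70.4% and 58.3% in the same order, and 7.45%, 5.52% and 2.13% of its calls were false. Each simulation changed 200 genes from otherwise equal group means, with as many raised as lowered. In the data 64.5% of all genes were called for EBSS in WT, so these shares need not hold there.

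The 6 members and all gene lists were chosen with earlier results of these data known. Named genes were the members, RB1CC1, up to 4 genes with the smallest p in WT EBSS per list, the 3 protein-coding genes (mean log2 CPM of at least 1) with the highest Pearson r to each member, and overlapping or nearest expressed genes; examples were taken from these, and 1 of them is not reported here. Alternatives were DESeq2 1.42.0, limma-voom (limma 3.58.1), other scalings and filters, only the groups compared, a replicate block, another gene length, Spearman's rho, and each library left out.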

Additional observations from a re-analysis of the deposited data

Results flagged for a closer look

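The EBSS response of ATG7 differed between lines by a test of the difference itself. It was larger in ATG7KO than in WT by 1.33 on the log2 scale (edgeR adjusted p = 6.07e-06), with ATG7KO libraries going from 3.68 to 4.51 CPM in full medium to 9.97 to 10.98 CPM in EBSS. It was smaller in the RB1CC1KO-labelled line than in ATG7KO by a log2 difference of -1.29 (edgeR adjusted p = 7.63e-06). Both differences use the same 6 ATG7KO libraries and are not separate evidence. Between the RB1CC1KO-labelled line and WT the difference was 0.03 (95% interval -0.26 to 0.33; edgeR adjusted p = 0.927).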

How the results depend on the processing

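Of 72 results for the 6 genes, each under 26 alternative settings (18 leave out a library), 65 kept their side of the threshold in all, and none of the 72 turned from one called direction to the other. The 7 that changed sides are given with their values beside the results above. The number of the 6 genes called between the RB1CC1KO-labelled line and ATG7KO in full medium was 2, and it was 1 with upper-quartile scaling, with no filter on low counts, with at least 10 reads in every library, or with only the groups compared. With single libraries left out it ran from 1 to 2 there, from 1 to 2 between the same lines in EBSS, and from 1 to 2 for ATG7KO against WT in EBSS. For EBSS against full medium, with 4 of the 6 called in each line, it ran from 3 to 6 in ATG7KO and from 3 to 4 in WT with single libraries left out, and from 4 to 5 in ATG7KO and from 3 to 4 in WT under the other settings. The cause was not tested. Upper-quartile scaling shifted the median gene in EBSS to -0.17 in all 3 lines. It moved the share of calls in the higher direction from 50.3% to 37.4% in WT, from 51.3% to 37.2% in ATG7KO and from 48.9% to 37.0% in the RB1CC1KO-labelled line, and from 53.3% to 43.1% between the RB1CC1KO-labelled line and ATG7KO in full medium. Among all genes, the count with a called response difference between ATG7KO and WT was 160, and it was 281 with no filter and 71 to 275 with single libraries left out. The lowest came without ATG7KO EBSS replicate 2 (71), and without that library ATG7KO against WT in EBSS had 1235 calls in place of 2010. The count for the RB1CC1KO-labelled line minus WT was 1238, and 788 without WT EBSS replicate 1 and 824 without RB1CC1KO-labelled full medium replicate 2. That for the RB1CC1KO-labelled line minus ATG7KO was 498, and 295 without ATG7KO EBSS replicate 2 and 309 without RB1CC1KO-labelled EBSS replicate 1.

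By a correlation cutoff of 0.1 set for this check, few same-numbered libraries went together. Of 45 same-numbered pairs 2 had a correlation of deviations above 0.1 (range -0.09 to 0.17). By mean correlation 6 of 18 libraries matched their own number best, the count expected if the numbers carried no link. With the replicate block none of the 72 member calls changed (0 of 72), but more genes were called in every comparison. The called ATG7KO minus WT response differences numbered 293 in place of 160. For ATG7KO against WT in full medium 1863 genes were called in place of 1599. The RB1CC1KO-labelled minus WT response differences numbered 1581 in place of 1238. The counts over all genes thus depend on the block, and whether same-numbered libraries were handled together was not tested.

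Depth limits ATG10 and, in ATG7KO, ATG7 most, with 24 to 139 and 47 to 170 reads per library.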
